A study of Mus musculus with 70 samples.

Results

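The cholinergic neuron genes were followed here across mouse brain regions. They are the 4 genes Chat, Slc5a7, Slc18a3 and Ache, out of 34677 genes in the gene-level table. They were chosen by symbol for their place in acetylcholine transmission and not by a cut on their values. Earlier results of these data were known when they and the gene lists below were chosen. The atlas held 70 libraries of bulk poly(A) RNA in 24 groups, from C57BL/6 mice (C57BL/6NTac for the brain tissue, by the study's methods) that carried no transgene and received no treatment in the labels. There were 57 libraries from 18 regions of postnatal day 56 brain, 9 from 4 regions of E14.5 brain and 4 from 2 lines of mouse embryonic stem cells (mESC), B6-1 and B6-2. The adult regions were the parabrachial nucleus (PB), dorsal-vagal complex (DVC), nucleus tractus solitarius (NTS), nucleus accumbens (ACB), ventral tegmental area (VTA), the hypothalamic regions ARH (arcuate), DMH (dorsomedial), LHA (lateral), PVH (paraventricular) and VMH (ventromedial), the cortical regions ACA (anterior cingulate), ENT (entorhinal) and FRP (frontal pole), and the cerebellar regions CBN (deep nuclei), CENT2 (central lobule), CUL4-5 (culmen), FL (flocculus) and UVU (uvula). The embryonic regions were hindbrain (H), midbrain (M), terminal with peduncular hypothalamus (THy-PHy) and forebrain (F, 1 library). Brain libraries pooled tissue of several animals, apart from a single ACB library from a single mouse, which was not identified here. Mice gave tissue to more than 1 region, so libraries of different regions were not fully independent. The labels do not say that replicates shared no animals. The p-values below measure the spread between these libraries.

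Acetylcholine is made from choline and acetyl-CoA by choline acetyltransferase, the product of Chat. Slc5a7 encodes the high-affinity choline transporter that returns choline to the terminal, Slc18a3 encodes the vesicular acetylcholine transporter that loads the transmitter into vesicles, and Ache encodes acetylcholinesterase, which splits the transmitter in the synapse. The first 3 are the usual markers of a cholinergic neuron, whereas acetylcholinesterase is also made by cells that receive acetylcholine and by some that do neither. In the dorsal-vagal complex the dorsal motor nucleus of the vagus holds cholinergic preganglionic neurons for the viscera, and in the nucleus accumbens sparse cholinergic interneurons lie among the projection neurons.

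Chat and Slc18a3 are one locus. In GRCm38 with the GENCODE M21 annotation, Chat (ENSMUSG00000021919.8) lies on chromosome 14 from 32408203 to 32465989 on the minus strand. Slc18a3 (ENSMUSG00000100241.1) is a single exon on the same strand, from 32462438 to 32464850, within intron 1 of Chat, and its annotated start is 1139 bases downstream of that of Chat. The library kit kept strand, but both genes are on 1 strand, so a read from unspliced Chat RNA within that exon would count as Slc18a3. Slc5a7 (ENSMUSG00000023945.7) lies on chromosome 17 from 54273590 to 54299034 on the minus strand, and Ache (ENSMUSG00000023328.14) on chromosome 5 from 137287519 to 137294466 on the plus strand. The files held 1 transcript each of Chat, Slc5a7 and Slc18a3 and 9 of Ache.

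The promoters are shown because Chat, Slc5a7 and Slc18a3 moved together over regions and Ache did not follow them closely. The sequences are those of RefSeq (GRCm38.p6), 250 bases before to 50 bases after the start, printed 5′ to 3′ on the gene's strand with E boxes (CANNTG, which reads alike on both strands) in capitals. All 4 genes had an entry. The windows are chr14:32465860-32466159 (minus) for Chat, chr14:32464801-32465100 (minus) for Slc18a3, chr17:54298985-54299284 (minus) for Slc5a7 and chr5:137288004-137288303 (plus) for Ache.
Chat: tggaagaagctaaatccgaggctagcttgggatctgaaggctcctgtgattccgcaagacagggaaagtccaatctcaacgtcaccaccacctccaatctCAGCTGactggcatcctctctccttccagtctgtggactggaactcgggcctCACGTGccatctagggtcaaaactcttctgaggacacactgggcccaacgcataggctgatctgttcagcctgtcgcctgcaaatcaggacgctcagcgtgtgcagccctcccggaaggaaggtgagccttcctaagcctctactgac
Slc18a3: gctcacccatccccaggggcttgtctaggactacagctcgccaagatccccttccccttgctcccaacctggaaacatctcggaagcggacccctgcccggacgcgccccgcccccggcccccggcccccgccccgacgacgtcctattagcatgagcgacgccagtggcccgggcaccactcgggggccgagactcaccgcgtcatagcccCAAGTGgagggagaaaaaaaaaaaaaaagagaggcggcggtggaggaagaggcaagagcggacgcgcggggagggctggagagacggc
Slc5a7: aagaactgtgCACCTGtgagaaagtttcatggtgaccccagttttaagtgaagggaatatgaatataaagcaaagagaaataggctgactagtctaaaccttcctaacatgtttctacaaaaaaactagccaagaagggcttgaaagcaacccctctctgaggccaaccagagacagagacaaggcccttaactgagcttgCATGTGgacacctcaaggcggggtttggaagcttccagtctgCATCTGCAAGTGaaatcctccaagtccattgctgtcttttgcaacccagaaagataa
Ache: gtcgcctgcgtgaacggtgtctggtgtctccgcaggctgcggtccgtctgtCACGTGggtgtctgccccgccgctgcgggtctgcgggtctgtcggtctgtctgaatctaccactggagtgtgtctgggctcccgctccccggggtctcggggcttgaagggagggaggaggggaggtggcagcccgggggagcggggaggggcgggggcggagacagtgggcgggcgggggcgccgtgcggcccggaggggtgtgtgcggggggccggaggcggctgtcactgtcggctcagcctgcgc
The number of E boxes was 2 in Chat, 1 in Slc18a3, 4 in Slc5a7 and 1 in Ache, and 72.3% of 32851 RefSeq promoters of this length held at least 1. The GC box GGGCGG, searched on both strands, occurred 4 times in the Ache window and 2 times in that of Slc18a3, and in neither of the others (35.7% of promoters hold it). CCAAT occurred 2 times in Chat alone among the 4 genes (37.4% of promoters). TATAAA occurred 1 time in Slc5a7 alone among the 4 (13.6%). No match of one motif overlapped a match of another. GC content was 74.0% for Ache, 67.0% for Slc18a3, 55.7% for Chat and 44.7% for Slc5a7, beside a median of 52.7% over all promoters.

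Total estimated counts per library ranged from 9074580 to 22229582 (median 17016934). H 1 was the shallowest and had 22.56% of its TPM, the length-normalised share of transcripts, in mitochondrial transcripts, VTA 1 had 39.62%, and the median library had 7.49%. Marker genes fitted the labels for ACB, whose accumbens list of 7 genes summed to 3991 to 5283 TPM there against 395.6 to 521.7 in DVC. The vagal and solitary list of 6 genes summed to 116.2 to 153.5 TPM in DVC, 22.9 to 40.8 in NTS and 0.686 to 7.03 in ACB. In H the caudal gene Hoxb5 was at 120 TPM in H 1, 147 in H 2 and 0.471 in H 3, and Hoxb4 at 25.6, 27.7 and 1.83 TPM. H 3 thus stood apart in the caudal markers of its region, so results in H are also given for each library.

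**Figure D1:**
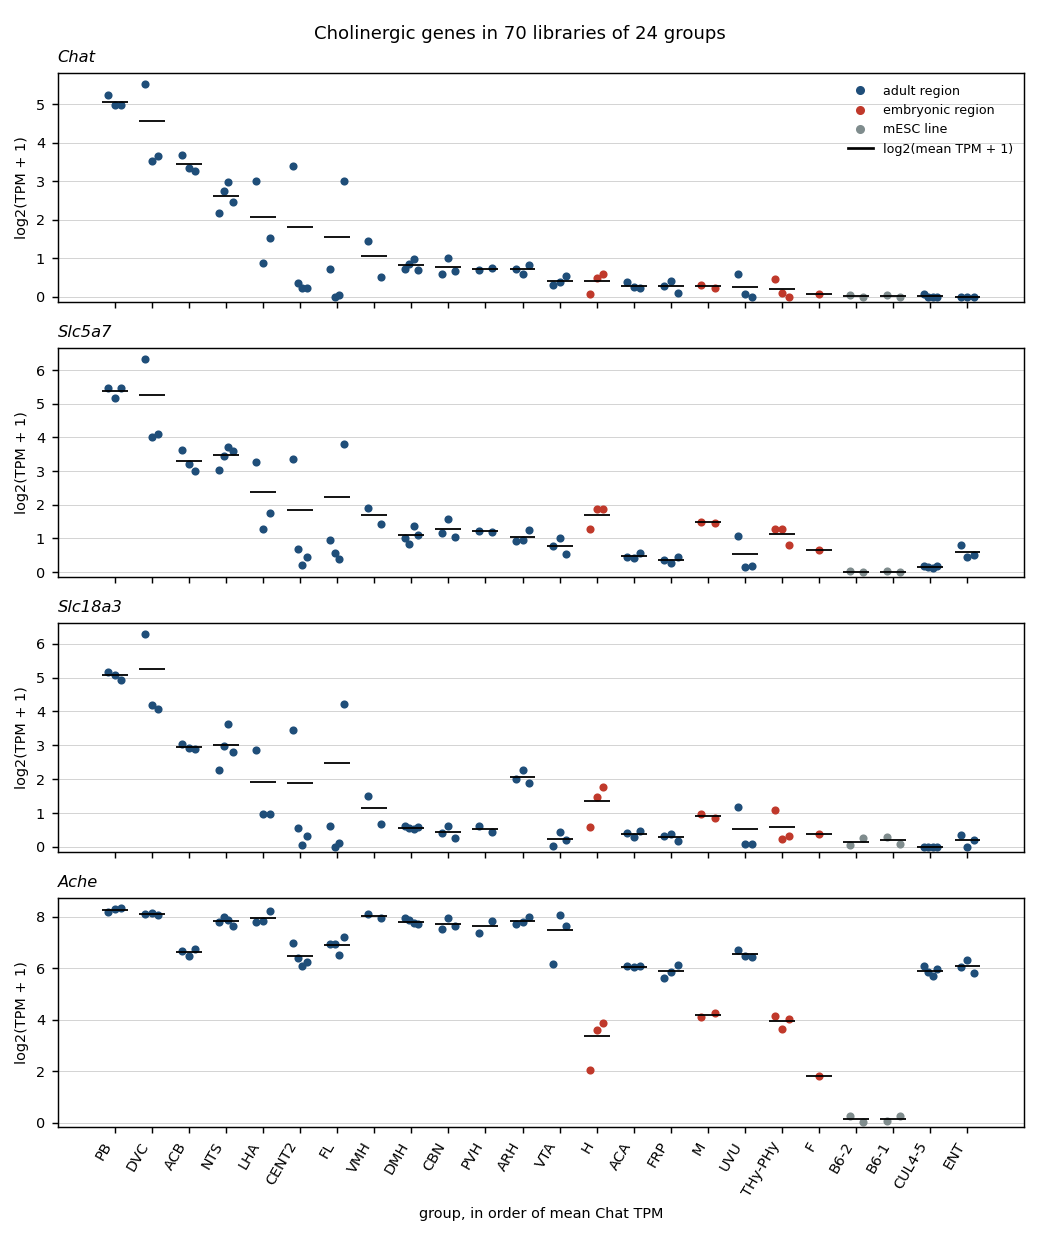
Level of each gene in all 70 libraries as log2(TPM + 1), with groups on the horizontal axis in order of mean Chat; points are libraries, coloured by adult region, embryonic region or mESC line, and black lines are the group means. Chat, Slc5a7 and Slc18a3 are highest in PB and DVC, with single high libraries in DVC, LHA, CENT2 and FL, whereas Ache is high in every adult region.

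Chat, the synthetic enzyme, was a gene of few regions. Its mean level was 32.6 ± 3.65 TPM (SD, n = 3) in PB, 22.5 ± 19.8 (n = 3) in DVC, 9.91 ± 1.75 (n = 3) in ACB and 5.15 ± 1.48 (n = 4) in NTS, and these were the 4 adult regions where every library reached 1 TPM. PB and DVC together made up 66.1% of the sum of the 24 group means, and the 4 regions 84.2%. The median over the 18 adult regions was 0.725 TPM. In order below NTS stood LHA at 3.23 ± 3.30 TPM (n = 3), CENT2 at 2.52 ± 4.64 (n = 4), FL at 1.93 ± 3.41 (n = 4) and VMH at 1.07 ± 0.901 (n = 2), and in LHA, CENT2 and FL the mean rested on 1 library. The other adult regions had means below 1 TPM, from 0.754 ± 0.167 (n = 4) in DMH down to 0.0117 ± 0.0235 (n = 4) in CUL4-5. ENT had no Chat count in 3 libraries of 50483689 counts in all, a total that allows up to 0.0594 CPM (counts scaled to the library total). Such intervals and limits cover counting error only. Of the 23 pairs of neighbours in this order, 20 had ranges that overlapped. ACB and NTS were among the 3 that did not overlap, with 8.63 TPM as the lowest ACB value and 6.92 as the highest of NTS.

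Slc5a7, the choline transporter, gave nearly the same order. Means were 40.6 ± 4.62 TPM (SD, n = 3) in PB, 37.1 ± 37.1 (n = 3) in DVC, 10.0495 ± 2.15 (n = 4) in NTS and 8.90 ± 2.20 (n = 3) in ACB. It had a longer tail than Chat, with 12 of 18 adult regions at a mean of at least 1 TPM against 8 for Chat. The lowest adult mean was 0.117 ± 0.0219 TPM (n = 4) in CUL4-5. ENT, with no Chat count, had Slc5a7 at 0.367 to 0.739 TPM. PB and DVC held 63.4% of the sum over groups, and 20 of 23 pairs of neighbours overlapped.

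Slc18a3, the vesicular transporter, was led by DVC at 37.0 ± 35.3 TPM (SD, n = 3) and PB at 32.4 ± 2.88 (n = 3), and these overlapped. NTS followed at 6.99 ± 3.18 TPM (n = 4) and ACB at 6.75 ± 0.405 (n = 3). PB and DVC held 67.0% of the sum over groups, and 21 of 23 neighbours overlapped. CUL4-5 had no count in 4 libraries of 65864034 counts, which allows up to 0.0455 CPM. ARH was higher in this gene than its Chat would place it. Its Slc18a3 was 3.02 TPM in ARH 1, 3.81 in ARH 2 and 2.68 in ARH 3, where Chat was 0.641, 0.506 and 0.759. The ratio of Slc18a3 to Chat was 3.53 to 7.53 in ARH, above the 0.346 to 2.48 of all 29 other adult libraries with at least 0.5 TPM of Chat. Slc5a7 in ARH, at 0.886 to 1.40 TPM, was close to Chat. ARH was singled out after its values were seen.

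Ache, the hydrolase, was expressed in every brain library and exceeded the other 3 genes per length in all 57 adult and all 9 embryonic libraries. Its adult means ran from 58.5 ± 10.8 TPM (SD, n = 3) in FRP to 308 ± 16.7 (n = 3) in PB. After PB came DVC at 277 ± 8.501 TPM (n = 3), VMH at 262 ± 21.8 (n = 2) and LHA at 250 ± 43.2 (n = 3), and those 3 overlapped one with the next. All 5 hypothalamic regions lay between 198 and 262 TPM on average. ACB, with the third highest Chat, ranked low in Ache at 99.2 ± 9.54 TPM (n = 3), beside FL at 120 ± 23.1 (n = 4) and UVU at 93.0 ± 10.1 (n = 3). PB and DVC held 19.1% of the Ache sum over groups. In the mESC lines Ache was at most 0.209 TPM, Slc18a3 at most 0.235 and Chat and Slc5a7 at most 0.0294 and 0.0154.

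The dorsal-vagal complex was 1 of the 2 strongest sites of the neuronal markers, and its 3 libraries were unequal. Chat was 45.3 TPM in DVC 1, 10.5 in DVC 2 and 11.7 in DVC 3. Slc5a7 was 79.9, 15.2 and 16.1 TPM in the same order, and Slc18a3 was 77.7, 17.3 and 15.9. Ache was 276, 286 and 269 TPM. DVC 1 was thus 4.09 times the mean of the other libraries in Chat, 5.11 times in Slc5a7 and 4.68 times in Slc18a3, and 0.992 times in Ache. Even the lowest DVC library was exceeded in Chat by only 4 of the 54 adult libraries from elsewhere, namely the 3 of PB and ACB 1. Mean TPM in DVC over the mean of the other 17 adult regions was 6.36 for Chat, 7.91 for Slc5a7, 9.96 for Slc18a3 and 1.72 for Ache.

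All 4 genes were called higher in DVC than in the mean of the other adult regions on the log scale (edgeR quasi-likelihood test, Benjamini-Hochberg adjusted p under 0.05 over 19980 genes and a log2 fold change beyond 1), where 4.58% of all genes were called higher. The log2 fold change ± SE was 5.05 ± 0.43 for Chat (adjusted p = 9.92e-14), 4.59 ± 0.36 for Slc5a7 (5.21e-15), 5.43 ± 0.45 for Slc18a3 (8.13e-14) and 1.06 ± 0.12 for Ache (6.45e-10). These folds are larger than the ratios of means because each reference region weighed alike on a log scale, and regions at or near 0 pulled the reference down. For Chat in ENT and Slc18a3 in CUL4-5 the fold depends on the prior count and is no bound. With both regions left out, the folds were 4.21, 4.23 and 4.78 for Chat, Slc5a7 and Slc18a3, all still called, and Ache was at 0.91 and no longer past the fold threshold (adjusted p = 7.28e-08 by edgeR). Without DVC 1 the values were 4.03, 3.34, 4.27 and 1.07, all called. With all other adult libraries pooled as 1 group, whose spread then holds the differences between regions, none was called (Chat 2.71, adjusted p = 0.23). In bulk tissue more cells of a type and more RNA per cell cannot be told apart. The 4 oligodendrocyte markers were also higher in DVC, at a sum of 8242 to 8473 TPM against 3307 to 4166 in ACB, and their part in the Ache result was not tested.

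Genes known from motor neurons accompanied the cholinergic markers in DVC. Of 13 on that list, 12 were called higher, beside 4.58% of all genes. The median log2 fold change of the list was 4.38, where the median over all genes was within 0.1 of 0. The list was not particular to DVC: 10 of the 13 were called higher in NTS (median 2.54, beside 5.17% of all genes). In PB 9 were called higher (median 2.26, beside 4.21% of all genes). Mnx1, a motor neuron homeodomain factor, was higher by 7.49 ± 0.76, Phox2a, a homeodomain factor of visceral motor and noradrenergic neurons, by 5.02 ± 0.55, and Calcb, a calcitonin gene-related peptide, by 6.00 ± 0.42. Olig2, a progenitor and oligodendrocyte factor, was not called. Within DVC, 9 of the 13 genes were highest in DVC 1, beside 7 of 14 genes of other transmitter systems and 5 of 16 nicotinic subunits. The share of all genes highest in DVC 1 was not counted. Prph, a peripheral-type intermediate filament of motor neurons, was 148 TPM in DVC 1 against 38.9 and 31.7, Calca 86.2 against 15.1 and 16.97, Calcb 32.9 against 4.27 and 5.93, and Mnx1 3.86 against 0.251 and 0.478. The sum of 4 general neuron markers was 3426 to 3486 TPM over the 3 libraries, with DVC 1 within that range.

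DVC was also compared with NTS, the sensory nucleus that adjoins the motor nucleus of the vagus. In NTS 1 to 4, Chat was 3.501, 5.67, 6.92 and 4.51 TPM, Slc5a7 7.15, 9.85, 12.1 and 11.1, Slc18a3 3.81, 6.81, 11.4 and 5.97, and Ache 219, 256, 232 and 197. The DVC libraries lay above those of NTS in all 4 genes with no overlap. The share of all genes that separated in this way was not counted. None of the 4 was called, with log2 differences of 2.05 ± 0.62 for Chat (edgeR adjusted p = 0.198), 1.81 ± 0.64 for Slc5a7 (0.357), 2.33 ± 0.70 for Slc18a3 (0.194) and 0.25 ± 0.18 for Ache (0.877). That comparison called 42 genes, 0.21% of those tested, while 1452 genes and 3 of the 4 had an unadjusted p under 0.05, and neither DESeq2 nor limma called any of the 4. Without DVC 1 the differences were 1.03, 0.56, 1.17 and 0.25. On the motor neuron list Calcb (3.27 ± 0.53, adjusted p = 0.000301) and Calca (2.95 ± 0.58, 0.0057) were called higher in DVC, and Chrna5, a nicotinic subunit, by 2.22 ± 0.54 (0.0434). Colq, which tethers acetylcholinesterase to the extracellular matrix, was lower in DVC by -1.14 ± 0.28 (0.0436).

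NTS itself stood above the adult mean in the neuronal markers. Chat was higher by 2.88 ± 0.53 (edgeR adjusted p = 1.14e-05), Slc5a7 by 2.67 ± 0.40 (1.61e-07) and Slc18a3 by 2.96 ± 0.57 (2.3e-05), where 5.17% of genes were called higher. Ache was at 0.80 ± 0.11 and below the fold threshold. The ratio of the NTS mean to that of the other 17 adult regions was only 1.13 for Chat and 1.38 for Ache. With the other adult libraries pooled every call was lost, with Chat at 0.32 (edgeR adjusted p = 0.894), Slc5a7 at 0.82 (0.657) and Slc18a3 at 0.48 (0.83). Markers of choroid plexus reached 10510 TPM in 1 NTS library and stayed at 3.61 TPM in another, and their part in the NTS values was not tested.

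In PB all 3 libraries had high levels of the 4 genes. Chat was 36.9, 30.4 and 30.7 TPM in PB 1 to 3, Slc5a7 43.0, 35.3 and 43.5, Slc18a3 34.98, 32.9 and 29.3, and Ache 289, 316 and 320. All 4 genes were called higher than in the other adult regions, where 4.21% of genes were. The log2 fold change was 5.58 ± 0.41 for Chat (edgeR adjusted p = 9.01e-16), 4.68 ± 0.36 for Slc5a7 (3.73e-15), 5.18 ± 0.47 for Slc18a3 (1.77e-12) and 1.13 ± 0.12 for Ache (1.91e-10). With ENT and CUL4-5 left out Ache fell below the fold threshold at 0.97, and with the other adult libraries pooled none was called (Chat 3.44, adjusted p = 0.0626). Only 1 of 54 other adult libraries, DVC 1, exceeded the lowest PB library in Chat. Of the motor neuron list 9 of 13 were higher, with Phox2a at 6.73 ± 0.41 and Lhx4, a LIM factor of motor neurons, at 4.54 ± 0.45. Genes of other aminergic cell groups were high in the same libraries, with Dbh, which makes noradrenaline, higher by 9.03 ± 0.35, the serotonin transporter Slc6a4 by 7.70 ± 0.45 and the serotonin-synthetic Tph2 by 5.99 ± 0.44.

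**Figure D2:**
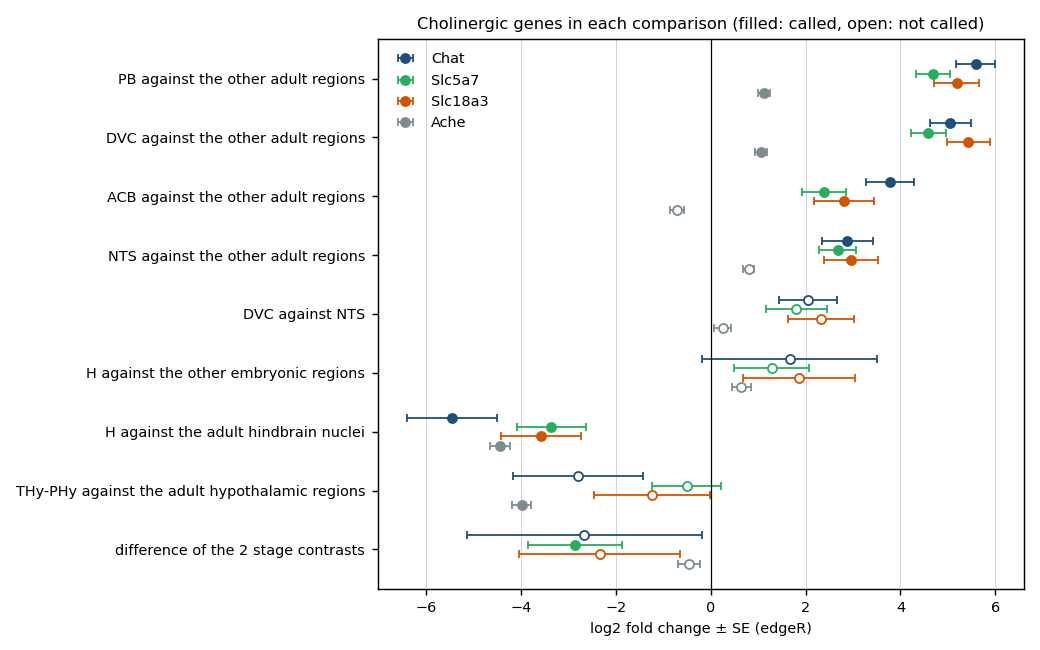
Log2 fold change (horizontal axis, ± SE from edgeR) of the 4 genes in each comparison (vertical axis); filled points were called and open points were not. Chat, Slc5a7 and Slc18a3 lie between 4.59 and 5.58 in PB and DVC with Ache near 1, and all 4 lie to the left in H against the adult hindbrain nuclei.

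In the nucleus accumbens the 3 neuronal markers were called higher, and Ache lay below its level in every PB, DVC and NTS library. Chat was 11.9, 9.21 and 8.63 TPM in ACB 1 to 3, Slc5a7 11.4, 8.29 and 7.08, and Slc18a3 7.21, 6.56 and 6.47. Ache was 101, 89.0 and 108 TPM. The spread was small, with the highest library at most 1.60 times the lowest in the 3 markers. Chat was called higher by 3.78 ± 0.51 (edgeR adjusted p = 1.30e-08), Slc5a7 by 2.39 ± 0.46 (1.93e-05) and Slc18a3 by 2.81 ± 0.64 (0.00025), where 7.37% of genes were called higher and 5.41% lower. Ache was at -0.71 ± 0.15 (adjusted p = 8.34e-05), short of the fold threshold. As ratios to the mean TPM of the other 17 adult regions these were 2.32, 1.40, 1.23 and 0.578, since PB and DVC weigh heavily in that mean. With the other adult libraries pooled none was called (Chat 1.24, adjusted p = 0.513). In every ACB library Chat exceeded both partners: Slc5a7 was 0.821 to 0.953 times Chat and Slc18a3 0.605 to 0.750 times. In DVC they were 1.38 to 1.76 and 1.36 to 1.71 times Chat. Slc18a3 was also below Chat in every library of CBN (0.346 to 0.687 times), DMH (0.449 to 0.840) and PVH (0.515 to 0.863), at low Chat.

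Genes of forebrain cholinergic neurons marked ACB in place of the motor neuron list. Of 9 such genes 7 were called higher and 1 lower, beside 7.37% of all genes higher and 5.41% lower. The median of the list was 2.99 (0 over all genes). Lhx8 and Nkx2-1, factors of ventral telencephalic cholinergic neurons, were higher by 7.78 ± 0.41 and 4.61 ± 0.47, and Isl1, a LIM factor also of striatal projection neurons, by 4.91 ± 0.30. Zic4 was lower by -1.35 ± 0.25. Lhx8 was 20.3, 4.98 and 11.1 TPM in ACB 1 to 3 and 0 in every DVC and PB library. Of the 13 motor neuron genes 1 was called higher, the shared Isl1, and 2 lower, Prph (-3.94 ± 1.35) and Lhx3 (-2.27 ± 0.68). In DVC 4 of the 9 forebrain genes were called higher, beside 4.58% of all genes. Among them were Gbx2 (4.89 ± 0.31), Gbx1 (3.62 ± 0.31) and Isl1 (1.38 ± 0.51).

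Single libraries of 3 further regions carried the neuronal markers. In CENT2 1 to 4, Chat was 9.48, 0.273, 0.168 and 0.169 TPM, Slc5a7 9.21, 0.599, 0.154 and 0.356, and Slc18a3 10.0281, 0.483, 0.0493 and 0.249. In FL 1 to 4, Chat was 0.642, 0, 0.0349 and 7.02 TPM, Slc5a7 0.941, 0.474, 0.312 and 12.9, and Slc18a3 0.540, 0, 0.0821 and 17.4. In LHA 1 to 3, Chat was 7.00, 0.830 and 1.86 TPM, Slc5a7 8.73, 1.43 and 2.38, and Slc18a3 6.34, 0.976 and 0.946. All 3 genes were at their highest in the same library of each region. Ache was less uneven, at 125, 83.0, 68.0 and 75.5 TPM in CENT2, 122, 122, 89.8 and 146 in FL, and 222, 229 and 300 in LHA, where LHA 1 was the lowest.

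The accompanying genes differed in part between the 3 libraries. In CENT2 1 the serotonin genes Slc6a4 and Tph2 were at 78.4 and 146 TPM and Dbh at 7.34. CENT2 2 also had 46.9 TPM of Slc6a4 with Chat at 0.273. Of the 13 motor neuron genes, 9 were highest in CENT2 1 and 7 in FL 4. Of these, 3 and 5 were at 1 TPM or more and over 2-fold above the next library. Other lists also peaked in CENT2 1, with 11 of 14 genes of other transmitter systems and 12 of 16 nicotinic subunits highest there. In FL 4 these were 4 of 14 and 4 of 16. The share of all genes highest in each library was not counted. All 5 muscarinic receptors were highest in CENT2 1, and all 4 oligodendrocyte genes in CENT2 1 and LHA 1. In FL 4 Prph was 24.8 TPM, where no other FL library passed 0.683, with Tbx20, a factor of cranial motor neurons, at 1.75 and Calcb at 5.06. In LHA 1 Lhx8 was 6.09 TPM against 0.596 and 0.827, and 6 of the 9 forebrain cholinergic genes were highest there while none of the 13 motor neuron genes was. The part of neighbouring tissue in these libraries was not tested. With CENT2 1 and FL 4 left out, the log2 folds of Chat, Slc5a7 and Slc18a3 were 5.46, 4.91 and 5.90 in DVC and 4.19, 2.71 and 3.28 in ACB.

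**Figure D3:**
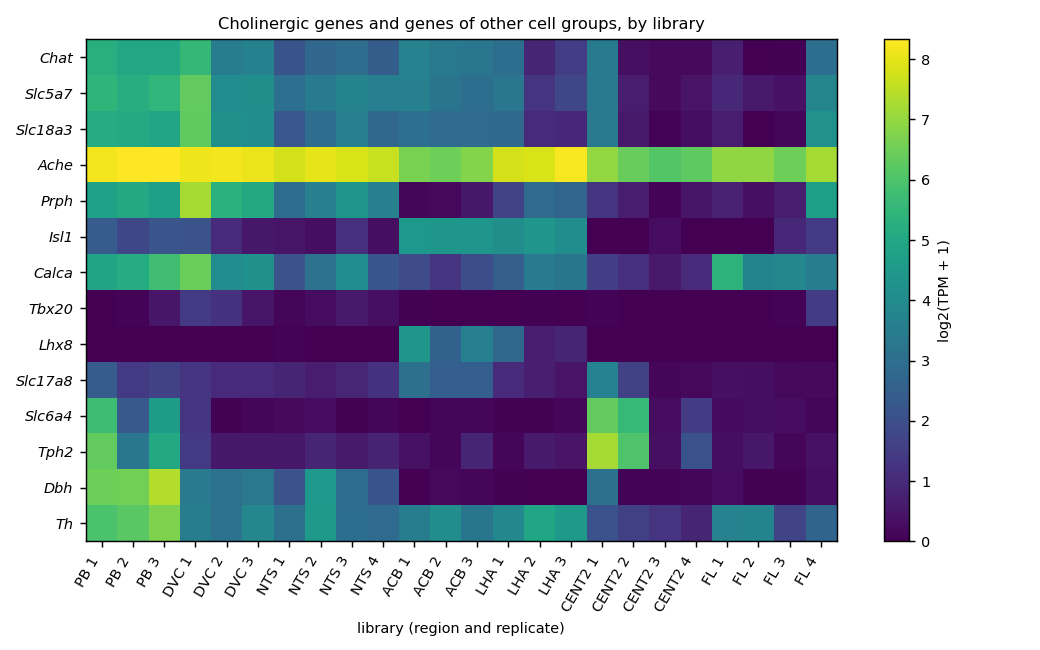
Heat map of log2(TPM + 1) for the 4 genes and 10 genes of other cell groups (rows) in the single libraries of 7 adult regions (columns). CENT2 1, FL 4, LHA 1 and DVC 1 stand out in Chat, Slc5a7 and Slc18a3, with Slc6a4 and Tph2 in CENT2 1, Prph in FL 4 and DVC 1, and Lhx8 in LHA 1.

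Over regions the 3 neuronal markers were each other's nearest genes. Across the 22 brain regions, with log2(TPM + 1) of the group means, Pearson's r was 0.969 for Chat and Slc5a7, 0.952 for Chat and Slc18a3 and 0.965 for Slc5a7 and Slc18a3. Among the other genes compared, the next after these for Chat were Abhd11os (0.806), Kremen2 (0.773) and Ighm (0.769). Uts2b, a urotensin-like peptide, was the first after Chat and Slc5a7 for Slc18a3 (0.790). Ache correlated with Chat at 0.506, and its own nearest genes were Tmem192 (0.991), Rit2 (0.989), Retreg1 (0.979), Fuca2 (0.973) and Ampd3 (0.972). Regions shared animals and the values rest on few high regions, so these are descriptions. Within regions, the deviations of 65 libraries from their region mean correlated at 0.965 for Chat and Slc5a7, and at 0.741 over 61 libraries with DVC 1, CENT2 1, FL 4 and LHA 1 left out.

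The ratios of Slc5a7 and Slc18a3 to Chat varied less than the levels of these genes, and the ratio of Ache to Chat varied more than Ache itself. In the 19 adult libraries with at least 1 TPM of Chat, Slc5a7 was 0.821 to 2.46 times Chat (median 1.42), and Slc18a3 was 0.508 to 2.48 times Chat (median 1.06). Ache was 6.08 times Chat in DVC 1 and 248 times in CBN 2. The lowest Slc5a7 ratio was in ACB 3 and the highest in NTS 4.

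**Figure D4:**
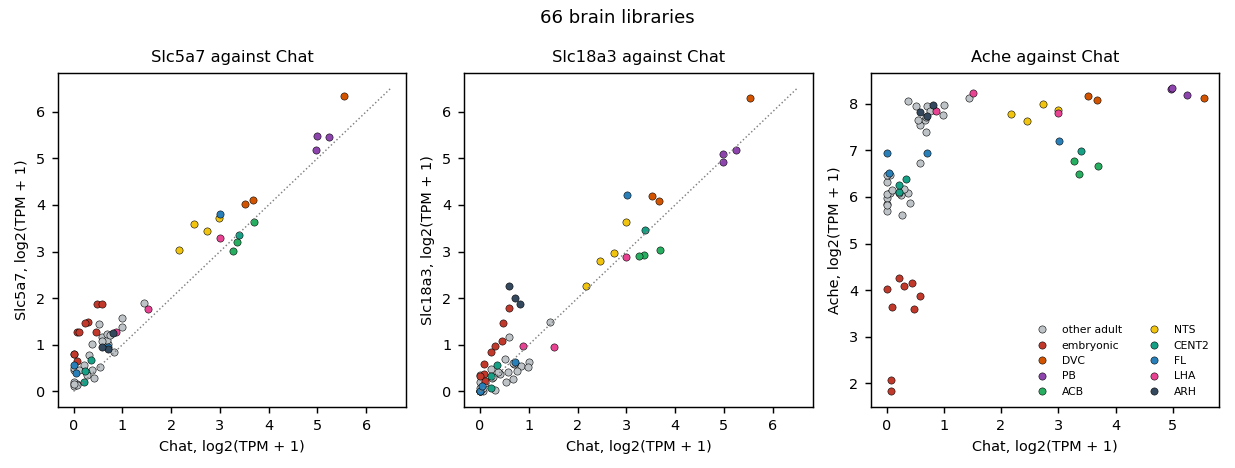
Slc5a7, Slc18a3 and Ache (vertical axes) against Chat (horizontal axes), all as log2(TPM + 1), in 66 brain libraries coloured by region; the dotted line marks equal levels. Slc5a7 and Slc18a3 follow Chat, the ARH libraries lie above the line for Slc18a3, and Ache separates embryonic from adult libraries.

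In the embryonic hindbrain the members were low. Chat was 0.053, 0.388 and 0.49976 TPM in H 1 to 3, Slc5a7 was 1.42, 2.67 and 2.67, Slc18a3 was 0.499, 1.78 and 2.44, and Ache was 3.18, 11.1 and 13.7. H 1, the shallowest library, was the lowest in all 4 genes. The Chat values rest on 1, 11 and 13 estimated counts. In M, Chat was 0.231 and 0.168 TPM, Slc5a7 1.80 and 1.77, Slc18a3 0.951 and 0.790, and Ache 16.1 and 18.1. In THy-PHy, Chat was 0.369, 0.0733 and 0 TPM, Slc5a7 1.43, 1.43 and 0.737, Slc18a3 1.11, 0.173 and 0.254, and Ache 16.9, 11.4 and 15.4. The single F library had 0.0559, 0.574, 0.296 and 2.56 TPM of the 4 genes in the same order. H was thus highest on average in the 3 neuronal markers and lower than M and THy-PHy in Ache. In all 9 embryonic libraries the order was Slc5a7 over Slc18a3 over Chat, an order seen in 23 of 57 adult libraries.

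None of the 4 was called in H against the mean of the other embryonic regions, where 12.2% of genes were called in either direction. The log2 differences were 1.66 ± 1.83 for Chat (edgeR adjusted p = 0.502), 1.29 ± 0.79 for Slc5a7 (0.189), 1.86 ± 1.18 for Slc18a3 (0.209) and 0.65 ± 0.20 for Ache (0.00781). Of the 4, 1 had an unadjusted p under 0.05, and neither DESeq2 nor limma called any. The Ache value rests on the single F library, since with F left out it was -0.16. H was also compared with THy-PHy (6.83% called) and with M (9.22% called), and no member was called in either, with Chat at 1.37 ± 1.99 and 0.99 ± 2.09. Without THy-PHy 1 the former was 3.11 (adjusted p = 0.561). In both, 0 of the 4 had an unadjusted p under 0.05 by edgeR, and of the other tools limma called Ache lower in H than in M (-1.06, adjusted p = 0.015). At these counts a difference in Chat of this size was not detectable. On the motor neuron list 5 of 13 genes were higher in H and 2 lower, with Phox2a at 4.14 ± 0.51, Tbx20 at 3.39 ± 0.53 and Lhx4 at 2.93 ± 0.68. Isl1 (-2.32 ± 0.36) and Olig2 (-1.99 ± 0.26) were lower. The markers of choroid plexus, 577 to 1933 TPM in H, were higher there too, 3 of 3, and their part was not tested.

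All 4 genes were lower in H than in the adult hindbrain nuclei PB, DVC and NTS, where 21% of genes were called lower. The log2 difference was -5.45 ± 0.94 for Chat (edgeR adjusted p = 1.06e-06), -3.36 ± 0.73 for Slc5a7 (4.94e-05), -3.57 ± 0.84 for Slc18a3 (0.000189) and -4.43 ± 0.21 for Ache (2.75e-25). As ratios of mean TPM the adult nuclei were 64.1 times H in Chat, 13.0 times in Slc5a7, 16.2 times in Slc18a3 and 29.0 times in Ache. The embryonic tissue was punched from hindbrain and the adult tissue from named nuclei, so stage, dissection and batch cannot be told apart. The oligodendrocyte markers summed to 14.9 to 31.2 TPM in H against 8242 to 8473 in DVC, and the 4 neuron markers to 519 to 1885 against 3426 to 3486. Partners of acetylcholinesterase were lower with it in H. Prima1, its membrane anchor in brain, was at -3.93 ± 0.40 and Colq at -5.35 ± 0.54.

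In the hypothalamus Ache alone was called by edgeR, with THy-PHy below the 5 adult hypothalamic regions by -3.98 ± 0.20 (edgeR adjusted p = 4.87e-24), where 20.1% of genes were called lower. Chat was at -2.79 ± 1.37 (0.0675) and was called by DESeq2 (adjusted p = 0.00683), by limma and by edgeR's earlier method (0.0345). Slc5a7 was at -0.50 ± 0.73 (0.563) and Slc18a3 at -1.23 ± 1.22 (0.386). The adult hypothalamic mean was 8.59 times THy-PHy in Chat and 1.66 times in Slc5a7. The Chat and Slc18a3 values rest on THy-PHy 1, the highest embryonic hypothalamic library in both. Without it the log2 differences were -4.50 for Chat (edgeR adjusted p = 0.0671) and -2.30 for Slc18a3 (0.26). The difference between both stage contrasts was called for Slc5a7, at -2.86 ± 0.99 (adjusted p = 0.0237), where 3.37% of genes were called lower. It was -2.66 ± 2.48 for Chat (0.457), -2.34 ± 1.69 for Slc18a3 (0.314) and -0.45 ± 0.23 for Ache (0.140), none called by edgeR. By limma on log2(TPM + 0.5) all of these were called, Chat at -3.03 (adjusted p = 0.00222), Slc18a3 at -2.47 (0.0361) and Ache at -1.03 (0.0223). The Slc5a7 call was lost without H 1 (-2.76, adjusted p = 0.0584), THy-PHy 1 (-2.79, 0.0693) or THy-PHy 2 (-2.68, 0.0654). Without THy-PHy 1 Chat was at -0.92 and Slc18a3 at -1.24 in that difference.

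Ache was also resolved into transcripts. Ache-202 (ENSMUST00000085934.3) held a median of 49.9% of Ache TPM in the 57 adult libraries and 62.9% in DVC, where its range was 60.5 to 63.6%. In embryonic libraries its median was 11.3% with a range of 0 to 61.3%. Ache-208 (ENSMUST00000150983.1) had 5.58% in adult and 16.7% in embryonic libraries. In ACB Ache-202 ranged from 11.98 to 54.7% between libraries. With single reads of 33 bases, the split among overlapping transcripts is an estimate that was not tested.

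Receptors for acetylcholine differed between the regions. Of the 5 muscarinic receptors, ACB had 3 called higher and 1 lower, beside 7.37% of all genes higher and 5.41% lower. DVC had 1 called higher and 2 lower, beside 4.58% and 1.81% of all genes. Chrm1, an excitatory receptor, averaged 97.8 ± 1.67 TPM (SD, n = 3) in ACB and 0.763 ± 0.271 (n = 3) in DVC, with a log2 fold change of 4.53 ± 0.15 in ACB and -3.16 ± 0.35 in DVC. Chrm4, an inhibitory receptor, averaged 64.3 ± 9.40 TPM in ACB and 1.41 ± 0.333 in DVC, with changes of 4.31 ± 0.08 and -1.47 ± 0.19. Chrm2, the inhibitory receptor known as an autoreceptor of cholinergic neurons, had the opposite pattern, at 25.4 ± 4.69 TPM in DVC and 3.15 ± 0.186 in ACB, higher by 1.80 ± 0.20 in DVC and lower by -1.40 ± 0.29 in ACB. In PB Chrm2 was higher by 1.61 ± 0.21, Chrm5 by 1.25 ± 0.34 and Chrm4 by 1.01 ± 0.14, beside 4.21% of all genes called higher. The ranges of Chrm1, Chrm2 and Chrm4 in DVC and ACB did not overlap, and the share of all genes with ranges apart was not counted.

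Of the 15 nicotinic subunits tested of 16, 4 were called higher in DVC and none lower, where 4.58% of all genes were higher and 1.81% lower. These were Chrnb4 (3.06 ± 0.27), Chrna3 (2.07 ± 0.26) and Chrna5 (1.76 ± 0.36), which form a cluster in the genome and the ganglionic type of receptor, and Chrna2 (1.48 ± 0.38). Chrna3 averaged 5.84 ± 2.71 TPM in DVC and 0.370 ± 0.0432 in ACB. In PB the subunits called higher were Chrna6 (3.68 ± 0.27), Chrnb3 (3.14 ± 0.31) and Chrna4 (1.11 ± 0.24), and Chrnb4 was lower (-1.78 ± 0.67), beside 4.21% of all genes higher and 1.55% lower. Chrna6 and Chrnb3 are known from dopamine and noradrenaline neurons, and Th, the first enzyme of catecholamine synthesis, was also higher in PB (2.35 ± 0.28). In ACB 2 subunits were called higher and 4 lower, among them Chrna3 (-2.15 ± 0.49) and Chrna6 (-2.53 ± 0.76), beside 7.37% of all genes higher and 5.41% lower. In H against the other embryonic regions Chrna5 (2.18 ± 0.32), Chrna1 (1.91 ± 0.71) and Chrna3 (1.56 ± 0.33) were higher. Chrna3 averaged 15.8 ± 3.52 TPM (n = 3) in H, more than in DVC, where Chat was 22.5 TPM against 0.314 in H.

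The anchors of acetylcholinesterase were higher in the adult hindbrain nuclei. Prima1 was higher by 2.04 ± 0.21 in DVC, 2.37 ± 0.20 in PB, 1.73 ± 0.19 in NTS and 1.39 ± 0.23 in ACB. Colq was higher by 3.11 ± 0.19 in NTS, 1.90 ± 0.25 in DVC and 1.01 ± 0.29 in PB, and lower by -2.24 ± 0.50 in ACB. Bche, the related butyrylcholinesterase, was called only in PB of these 4 regions, at 1.69 ± 0.21. Of 12 genes of choline uptake and phosphatidylcholine, 2 were higher in DVC, Slc44a3 (2.68 ± 0.27) and the acetyl-CoA source Acly (1.10 ± 0.12), and none was higher in ACB, where Chpt1 was lower (-1.10 ± 0.33). The median change of that list was 0.21 in DVC and -0.29 in ACB. Of 8 proteins that assist nicotinic receptors, 1 was called in DVC, Lypd6b (1.5042 ± 0.14), and 4 in ACB, Rapsn (2.26 ± 0.29), Lypd1 (1.99 ± 0.13) and Ly6h (1.28 ± 0.19) higher and Lynx1 (-1.04 ± 0.10) lower. The shares over all genes were again 4.58% higher in DVC, and 7.37% higher and 5.41% lower in ACB.

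**Figure D5:**
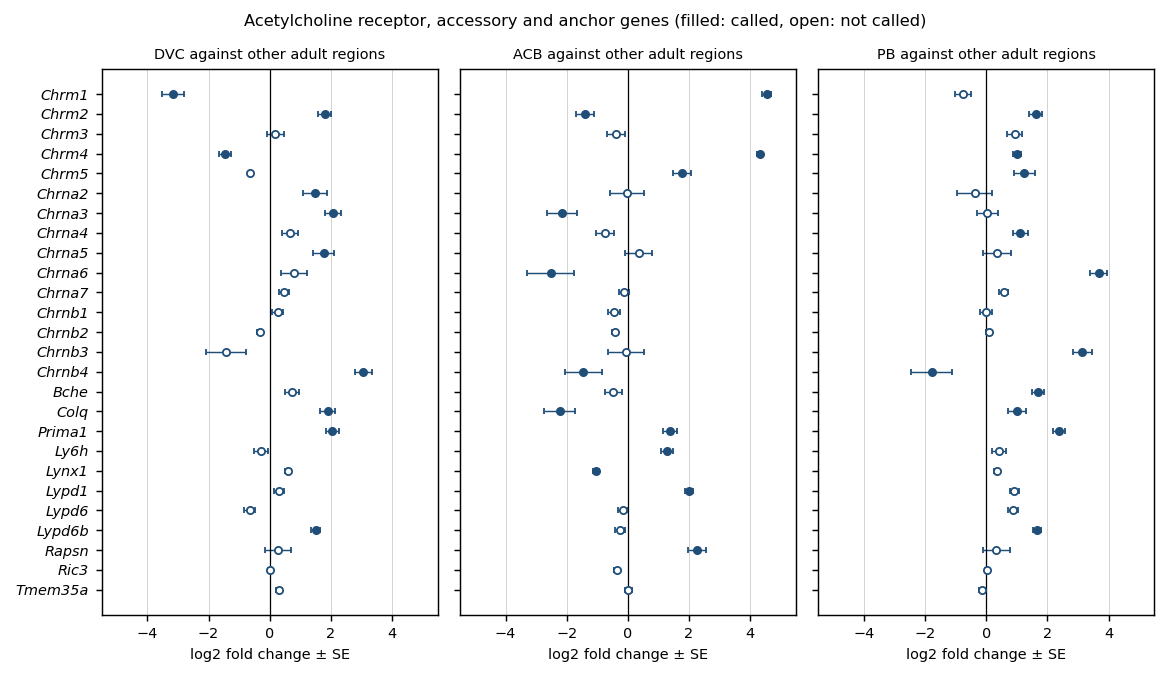
Log2 fold change (horizontal axes, ± SE) of the acetylcholine receptor, anchor and accessory genes with a mean of at least 1 TPM in DVC, ACB or PB, in each of these regions against the other adult regions; filled points were called, and SE bars above 3 are not drawn. Chrm1 and Chrm4 lie far right in ACB and left in DVC, Chrnb4, Chrna3 and Chrna5 right in DVC, and Chrna6 and Chrnb3 right in PB.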

How the data were processed

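Tissue was punched from frozen sections, libraries were made with a stranded mRNA kit and sequenced as single reads of 33 bases (CASAVA 1.8.2, per the labels). The authors quantified reads with kallisto on GRCm38 and deposited estimated counts per transcript and TPM per transcript and per gene. Here the estimated counts were rounded, summed by gene (98.8% of 109282 transcripts matched GENCODE M21) and tested in R 4.3.3 by the quasi-likelihood functions of edgeR 4.0.16, after TMM scaling and filterByExpr, with a mean for each group over all 70 libraries. Calls needed a Benjamini-Hochberg p under 0.05 together with a log2 fold change beyond 1. The SE is the fold change divided by the square root of F. PB, NTS and hypothalamic comparisons were added after levels were seen. The members and lists were chosen with earlier results of these data known. At most 4 called genes per list were named, by size of change. Some list genes are not reported here. Levels are TPM. DESeq2 1.42.0, limma 3.58.1 and leave-one-out fits were alternatives. On simulated counts 200 of 200 changed genes of 17856 were called in DVC, with 2 unchanged ones. How often calls are wrong or missed in the measured libraries was not tested. Depth was 9074580 to 22229582 counts per library, and counting limits use 3 counts.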

Additional observations from a re-analysis of the deposited data

Results flagged for a closer look

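In groups of 4 libraries, 7 of 20 checks of 1 library against the rest (Dixon's gap, 5 groups and 4 genes) passed the 95% limit. The checks were not independent, since the genes share libraries and Chat, Slc5a7 and Slc18a3 moved together. The number of flags therefore cannot be set against a chance rate. CENT2 1 was far above the other CENT2 libraries in Chat (9.48 TPM), Slc5a7 (9.21 TPM) and Slc18a3 (10.0281 TPM). FL 4 was far above the other FL libraries in Chat (7.02 TPM), Slc5a7 (12.9 TPM) and Slc18a3 (17.4 TPM). CUL4-5 1 had Chat at 0.0469 TPM where the other 3 libraries had none, which rests on 1 count. DVC and LHA, with 3 libraries each, were not checked in this way. The stage difference of Slc5a7 in hindbrain differed from that in hypothalamus by -2.86 on the log2 scale.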

How the results depend on the processing

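Of the member comparisons under all alternatives, 763 kept direction and side of the threshold, 19 lost the call, 11 gained it and 7 reversed; the cause was not tested unless stated. With the other adult libraries pooled, whose spread includes regional differences, the genes called fell to 66 in DVC, 1316 in ACB, 40 in PB and 314 in NTS, and no member was called. With ENT and CUL4-5 left out the only lost calls were Ache in DVC (0.91) and PB (0.97). None of the 2617 genes with a reference region at 0 was called lower in DVC (361 of the other 17363 were), which follows from the log mean. limma on log2(TPM + 0.5) called 764 genes in DVC, 740 in PB and 915 in NTS. DVC against NTS gave 14 genes by edgeR's earlier method, 22 by DESeq2, 15 by limma with 0.1 added, and 17 to 46 with 1 library left out (17 without DVC 1, 27 without NTS 1). With 1 library left out, H against the other embryonic regions gave 1580 (without H 1) to 3087 genes and H against M 717 (without H 1) to 2772 (without H 3). The split in H against the other embryonic regions was 1912 higher and 524 lower by edgeR, and 792 and 1101 by limma with 0.5 added, where the median of all genes shifted by -0.14. Ache reversed in H against the other embryonic regions to -0.13 by limma with either pseudocount and to -0.16 without F, in H against THy-PHy to 0.14 without H 1 and 0.02 without THy-PHy 3 (range -0.39 to 0.14 over single libraries left out), and in H against M to 0.11 without H 1 and 0.01 without M 1 (range -0.42 to 0.11). Medians in place of means moved the share of the sum over groups to 47.7% (Chat in PB), 14.3% (Chat in ACB), 44.5% (Slc5a7 in PB), 2.76% (Slc5a7 in H), 44.0315% (Slc18a3 in PB) and 8.79% (Slc18a3 in ACB), and CPM moved Ache to 9.41% in DVC and 2.87% in ACB. The correlation with Ache was 0.548 for Slc5a7 and 0.536 for Slc18a3 without a logarithm, 0.584 and 0.520 over adult regions, and 0.275 and 0.283 without DVC and PB. By estimated counts Ache-208 held 12.3% in adult and 33.9% in embryonic libraries. limma also called Chat, Ache and, with 0.5 added, Slc18a3 in the difference of the stage contrasts. Pairing was checked by replicate number only. In 0 of 153 pairs of groups did every same-numbered pair correlate above 0.1. A block by replicate number changed no member's call. It gave 1269 genes in DVC, 2544 in ACB, 2560 in H and 42 in DVC against NTS. It also gave 8815 genes in H against adult hindbrain and 1941 in the stage difference. The DVC replicates do not follow the order of the running numbers in the labels, and pairing by those numbers was not tested. Chat in H rests on at most 13 counts.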
